A study of Mus musculus with 4 samples.

Results

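The suppressor of cytokine signalling genes Socs1, Socs2, Socs3 and Cish, the transcription factor genes Stat5a and Stat5b, and Prlr, the prolactin receptor gene, were followed through the CD45+ cells of the mouse mammary gland. These 7 genes of 55253 matched between the libraries were chosen by name, with the Lactation and Gestation values of these data already in view. The question asked was whether Socs2 and Cish, known targets of STAT5, are higher in lactation, and in which cells. Prolactin, growth hormone and many cytokines (interleukin-2, interleukin-7 and interleukin-15 among them) act through receptors whose JAK kinases phosphorylate STAT5. STAT5 then enters the nucleus and induces, with other genes, Cish and the Socs genes, whose proteins bind the receptors or kinases and dampen the signal. In the mammary epithelium prolactin and STAT5 drive milk gene expression, and in T and natural killer (NK) cells STAT5 carries the survival and growth signals of the common gamma chain cytokines.

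Cells came from 2 pooled droplet libraries, DR_MG_2021 (the earlier) and DR_MG_2022 (the later), each called a pool here, in which antibody-borne hash tags mark the sample of each cell. The earlier pool held cells tagged Nulliparous (never pregnant), Gestation and Lactation. The later pool held Gestation, Lactation, Involution (the shrinking of the gland after nursing ends), Regression (a further stage name), Balb/c (the name of a mouse strain) and GF. Each library also held cells with tag HT2, which the tag sheets call Germ-free. The earlier pool's title instead lists involution and no germ-free sample, so what HT2 stands for in that pool is unclear. These cells are called by the tag and kept out of the stage comparison. The sources used here do not give strain, age or genotype, how many animals stand behind a tag, or at which stage Balb/c and GF mice were taken. Gestation and Lactation thus had 1 hash-defined sample in each library, and every other name had 1 in all.

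Cells were gated by raw UMIs (unique molecular identifiers, each standing for 1 captured transcript): Cd3e for T, Ncr1 for NK, Ms4a1 for B, Fscn1 for dendritic and Krt8 for epithelial cells, with none of the other 4 gate genes. The gates held 6018 of 15172 analysed cells in the earlier pool and 8504 of 14480 in the later pool. Sequencing was deeper in the later pool, with a median of 3049 UMIs per cell against 1599, and the libraries shared 139 cell barcodes. The Lactation sample of the later pool was small, at 782 cells. The Cd3e gate matched its label, with Cd3d in 64.6% and 81.2% of its cells (earlier and later pool). So did the Ms4a1 gate, with Cd79a in 69.1% and 94.6%. Nkg7 was seen in 88.1% and 91.0% of Ncr1 cells, but also in 57.65% and 63.05% of Cd3e cells. In the earlier pool's Ncr1 cells Gzma was seen in 80.8%, Klrb1c in 64.7%, Klrd1 in 58.1%, Klre1 in 53.5% and Eomes in 19.2%. The T markers Trbc2 and Cd3d were seen in 29.4% and 6.64% of them. Whether all Ncr1 cells are NK cells was not tested. The Krt8 gate was only partly epithelial, with Krt18 in 11.1% and 40.4% of its cells and the macrophage gene Csf1r in 19.4% and 40.4%. The Fscn1 gate of the later pool mixed dendritic cells with endothelial ones: Ccr7 was seen in 32.9% and the endothelial gene Cdh5 in 30.05%, against 72.0% and 4% in the earlier pool. Levels below are UMIs per 10000 UMIs of the same cells, with exact Poisson 95% intervals that cover counting error only. The gene entry CT010467.1 took 18.0% to 19.0% of the UMIs of each tagged sample in the earlier pool and 5.66% to 6.50% in the later pool. It stayed in the denominator, which lowers the earlier pool's levels more, so levels are best compared within a pool.

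STAT5 binds DNA at the palindrome TTCNNNGAA, which reads the same on both strands, so promoters were searched for it from 250 bases before to 50 bases after each annotated start (RefSeq, GRCm38.p6). Entries were matched for 6 of the 7 members, Socs2 being the one without an entry. The windows that hold the palindrome are shown because Cish is a member the results turn on, and capitals mark the palindrome.
Cish: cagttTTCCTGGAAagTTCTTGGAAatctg
Socs3: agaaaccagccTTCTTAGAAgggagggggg
Prlr: ggcaaaatgagTTCTAGGAAtaagggatat
The Cish stretch (chr9:107296654-107296683, plus strand) carries 2 palindromes side by side, starting at bases 1 and 12 of the annotated transcript. The Socs3 stretch (chr11:117969502-117969531, minus strand) has 1 that starts 154 bases before the start site. That of Prlr (chr15:10223785-10223814, plus strand) lies 110 bases before 1 of its annotated starts. Of 32851 promoter windows, 8.30% held at least 1 palindrome and 0.457% held 2 or more. The windows of Socs1, Stat5a and Stat5b held none. A match of letters is not evidence of binding here.

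The members fell into cell types in different ways. Cish, the cytokine-inducible SH2 protein that restrains interleukin-2 and T cell receptor signalling, was highest in T and NK cells. Its level was 1.21 in T cells in the earlier pool (95% interval 1.12 to 1.30) and 1.43 in the later pool (1.37 to 1.496). In NK cells it was 1.05 and 1.18. In Ms4a1 cells it was 0.0360 and 0.0945, which serve here as a reference for low levels, and in Csf1r cells outside the gates it was 0.0668 and 0.0843. Cish UMIs were found in 17.8% of T cells in the earlier pool and 29.7% in the later pool, against 0.426% and 1.92% of Ms4a1 cells. The Krt8 gate lay between, at 0.346 (6 UMIs in 36 cells) and 0.341 (29 UMIs, in 14 of 52 cells). Median depths were 1532 and 3056 UMIs in T cells and 895 and 2047 in Ms4a1 cells.

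Socs1, which blocks JAK kinases downstream of interferon and common gamma chain receptors, was likewise highest in T and NK cells. Its level was 0.403 and 0.569 in T cells and 0.412 and 0.684 in NK cells, against 0.0577 and 0.0961 in B cells. Unlike Cish, it was low in the Krt8 gate, at 0.0576 (1 UMI) and 0.0352 (3 UMIs). In the Fscn1 gate it was 0.217 and 0.223, above the Cish levels there of 0.108 and 0.0791. Over sums of gate and tag with at least 20 cells, the Socs1 and Cish levels had correlations of 0.917 in the earlier pool (13 points) and 0.895 in the later pool (25 points). These points share libraries and tags and include no Krt8 sum, so the correlation is a description. It includes the gap between the high T and NK sums and the low B sums. The B sums of the earlier pool held 5 Cish and 8 Socs1 UMIs in all.

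Socs2, which restrains growth hormone and other STAT5 signals, stood apart from Cish. It was highest in the Fscn1 gate, at 4.08 in the earlier pool (3.36 to 4.91) and 2.52 in the later pool (2.27 to 2.80), far above the T cell levels of 0.323 and 0.446 and the NK levels of 0.432 and 0.441. A subset of Fscn1 cells also had a UMI of Ccr7, Ccl22, Cacnb3, Il4i1 or Flt3 and no stroma marker (Cdh5, Col1a1 or Col3a1). In this subset Socs2 was 4.72 in the earlier pool (87 cells) and 5.05 in the later pool (86 cells). Fscn1 cells with a stroma marker had a Socs2 level of 1.21 in the later pool (87 cells). Cish was nearly missing from these dendritic-marker cells, with 1 UMI in each library. The correlation of Socs2 with Cish over the same sums was 0.248 in the earlier pool and 0.0720 in the later pool. The Fscn1 gate, where Socs2 was highest, gave only 1 of these sums in the earlier pool and 4 in the later pool. The Socs2 correlations thus lean on few points.

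Socs3, which binds gp130-type receptors and is induced by STAT3, was high in the Csf1r cells of no gate, a class of macrophages and monocytes by that gene. Its level there was 0.447 in the earlier pool (0.385 to 0.518) and 0.650 in the later pool (0.602 to 0.701), against 0.149 and 0.259 in T cells. Only the Krt8 gate of the later pool had a higher Socs3 level, at 0.705 (60 UMIs in 52 cells). Stat5a and Stat5b, the transcription factors themselves, varied little between immune classes. Stat5a ranged from 0.233 to 0.434 in the T, NK, B, Fscn1 and Csf1r classes of the earlier pool and from 0.274 to 0.438 in the later pool. Stat5b ranged from 0.336 to 0.473 and from 0.487 to 0.688.

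Prlr was almost undetected in lymphocytes. All T cells together gave 12 Prlr UMIs in the earlier pool and 9 in the later pool, NK cells gave 7 and 6, and B cells 5 and 18, which put its level between 0.00620 and 0.0360. In the Krt8 gate of the later pool 17 of 52 cells held 418 Prlr UMIs, a level of 4.91 (4.45 to 5.40). All 418 lay in the 25 Krt8 cells that also had another epithelial marker, and the 27 other Krt8 cells had none, which allows a level of up to 0.299. By sample these UMIs were 279 in tag HT2 (12 cells), 101 in Regression (12 cells), 16 in GF, 13 in Involution, 6 in Lactation (2 cells), 3 in Balb/c and 0 in Gestation (6 cells). Single cells held most of them: 59.5% of the HT2 UMIs and 71.3% of the Regression UMIs came from 1 cell each. The epithelial Stat5a level was 1.06 in the later pool, also the highest of any gate there. In the earlier pool the Krt8 gate had 2 Prlr UMIs in 36 cells, a level of 0.115 (0.014 to 0.416). The Stat5a level of that gate was 0.288 (5 UMIs), below the 0.434 of the Fscn1 gate. In the Fscn1 gate of the later pool 18 Prlr UMIs lay in 2 of 213 cells. With 3 and 2 Krt8 cells in the Lactation samples, the epithelial response to lactation was not measurable, and no dendritic or epithelial comparison of stages was fitted. Socs2 in the Fscn1 gate pointed in different directions in the libraries. In the earlier pool it was 2.355 in Gestation (8 UMIs in 9 cells) and 5.63 in Lactation (19 UMIs in 15 cells). In the later pool it was 8.71 (35 UMIs in 10 cells) and 1.99 (18 UMIs in 12 cells). The ratios were 2.39 (0.9985 to 6.31) and 0.228 (0.1215 to 0.414). In Fscn1 cells with a dendritic marker they were 1.08 (0.413 to 3.29) and 0.379 (0.202 to 0.688).

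**Figure D1:**
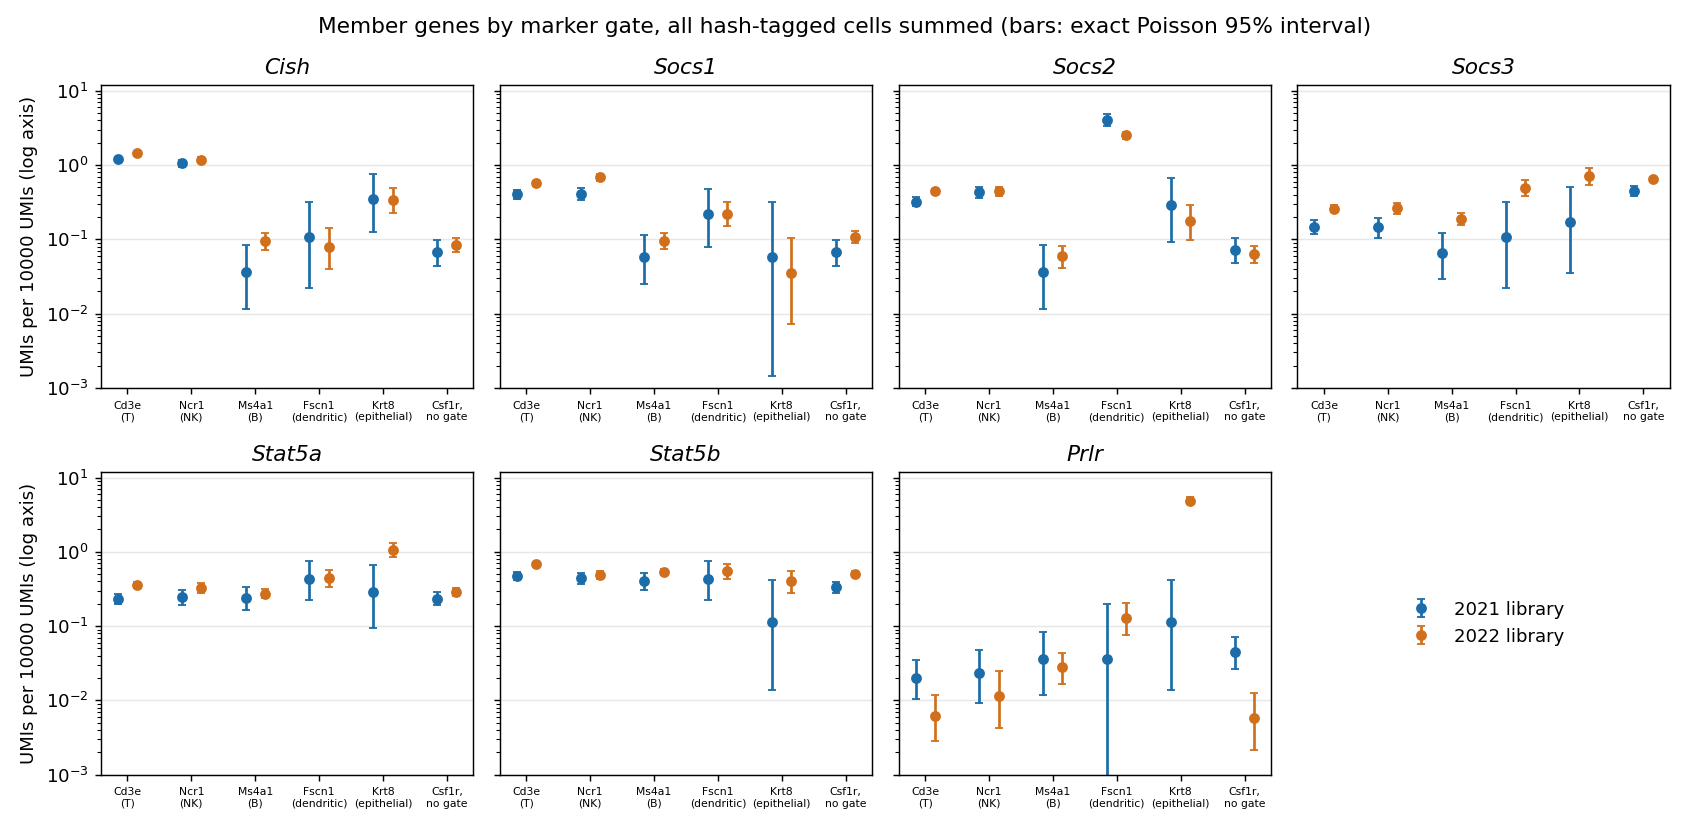
Level of each member (UMIs per 10000 UMIs, log axis) in the 5 marker gates and in Csf1r cells of no gate, for the earlier (blue) and later (orange) pool, with all tagged cells summed and bars giving the exact Poisson 95% interval. Cish and Socs1 sit high in the T and NK gates, Socs2 peaks in the Fscn1 gate at 4.08 and 2.52, and Prlr stands out in the Krt8 gate of the later pool at 4.91. The lower bar of Prlr in the Fscn1 gate of the earlier pool, which rests on 1 UMI, runs below the axis.

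In T cells Cish and Socs2 were higher in Lactation than in Gestation in each library. The direction was not particular to the Cd3e gate: in the cells outside every gate and without Csf1r, of which 24.4% and 30.2% had a Cd3d UMI, the Cish ratios were 1.43 (1.18 to 1.73) and 1.24 (0.944 to 1.62). The Socs2 ratios in those cells were 1.90 (1.34 to 2.71) and 1.41 (0.897 to 2.17). Cish was 1.13 in Gestation (140 UMIs in 812 cells) and 1.498 in Lactation (222 UMIs in 634 cells) in the earlier pool. In the later pool it was 1.60 in Gestation (823 UMIs in 1409 cells) and 2.17 in Lactation (245 UMIs in 365 cells). The Lactation level was thus 1.33 times the Gestation level in the earlier pool (95% counting interval 1.07 to 1.65) and 1.36 times in the later pool (1.17 to 1.57). Socs2 was 0.258 in Gestation (32 UMIs) and 0.452 in Lactation (67 UMIs) in the earlier pool. It was 0.433 (223 UMIs) and 0.666 (75 UMIs) in the later pool. The Socs2 ratio was 1.75 in the earlier pool (1.14 to 2.76) and 1.54 in the later pool (1.17 to 2.01). These intervals describe the counting of molecules in 1 sample per stage and library. They are no test, since the members were chosen with these values in view, and they do not cover the spread between animals.

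Thinning every cell to 1000 UMIs, to remove depth, kept the order. The share of T cells with a Cish UMI was 10.6% in Gestation and 13.3% in Lactation in the earlier pool, and 13.4% and 18.7% in the later pool, after 158 and 27 shallower cells were left out in the earlier pool and 6 and 1 in the later pool. Before thinning it was 14.2% and 27.8%, and 32.6% and 41.4%. For Socs2 the thinned shares were 2.29% and 3.95% in the earlier pool and 4.06% and 5.22% in the later pool, against 3.69% and 8.04%, and 10.2% and 14.2%, before thinning. The intervals of the thinned Gestation and Lactation shares overlapped in each library for Socs2 and for Cish.

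The fit of the 4 samples with the library year as a block (edgeR) gave Socs2 a log2 fold change of 0.66 (SE 0.24) and Cish 0.40 (SE 0.21). These are given without a p-value, because the members were selected on this contrast. Of 9139 genes tested in T cells, 2 were called at an adjusted p under 0.05 (0.0219%), and neither was among the 6 members that passed the filter on low counts. The called pair, named outside the rule after their values were seen, were the haemoglobin genes Hba-a1 and Hbb-bs, lower in Lactation by log2 fold changes of -4.60 and -4.32 (edgeR adjusted p = 0.0119 and 0.0126). At an HTODemux quantile of 0.95 that pair was higher, by 1.68 and 1.71, and the number of genes called over all alternatives ran from 0 to 91. With at least 2 Cd3e UMIs required, which kept 299, 369, 846 and 230 cells, the fold changes were 0.28 for Socs2 and 0.21 for Cish.

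The other members did not share that pattern in T cells. Socs1 was 0.387 in Gestation and 0.466 in Lactation in the earlier pool, and 0.623 and 0.586 in the later pool. Socs3 was lower in Lactation in the earlier pool, at 0.0472 (7 UMIs) against 0.169 (21 UMIs), a ratio of 0.279 (0.1003 to 0.682). In the later pool Socs3 was 0.258 against 0.297, a ratio of 0.867 (0.562 to 1.30). Stat5b had ratios of 0.701 (0.482 to 1.01) and 0.988 (0.760 to 1.27), and Stat5a 0.652 (0.350 to 1.20) and 1.08 (0.752 to 1.52).

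NK cells gave no single direction. NK Cish was 0.792 in Gestation (63 UMIs in 521 cells) and 1.47 in Lactation (142 UMIs in 366 cells) in the earlier pool, a ratio of 1.86 (1.37 to 2.54). In the later pool it was 1.495 in Gestation (119 UMIs in 205 cells) and 0.967 in Lactation (23 UMIs in 60 cells), a ratio of 0.647 (0.395 to 1.02). NK Socs2 went the same 2 ways, with ratios of 1.58 (0.958 to 2.68) and 0.523 (0.159 to 1.35), the second resting on 5 UMIs. Socs1 did so too, with 1.46 (0.884 to 2.46) and 0.529 (0.230 to 1.08). Over both libraries the fitted log2 fold changes were 0.24 for Cish (SE 0.31) and 0.13 for Socs2 (SE 0.41). Whether the T and NK responses differ was not tested. Of 7782 genes tested in NK cells 7 were called (0.09%), none of them among the 6 members tested.

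The share of NK cells with Gzmb or Itgae also went in different directions. In Lactation of the later pool 43.3% had a Gzmb or Itgae UMI, against 66.8% in Gestation, and in the earlier pool the shares were 78.1% and 48.9%. Cish in NK cells with Gzmb or Itgae was 1.72 in Gestation and 1.502 in Lactation in the later pool, and 0.611 and 1.62 in the earlier pool. At the looser tag threshold the Lactation NK cells of the later pool numbered 199 in place of 60. The part of that share in the NK values was not tested.

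B cells gave no readable change. Cish had 2 UMIs in 352 Gestation cells and 0 in 52 Lactation cells in the earlier pool, and 9 in 558 and 2 in 26 in the later pool. Socs2 had 1 and 0 UMIs, and 7 and 2. None of the 7 members passed the filter, and 0 of 3660 genes (0%) were called by edgeR, with 88 at an unadjusted p under 0.05. DESeq2 also called 0.

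**Figure D2:**
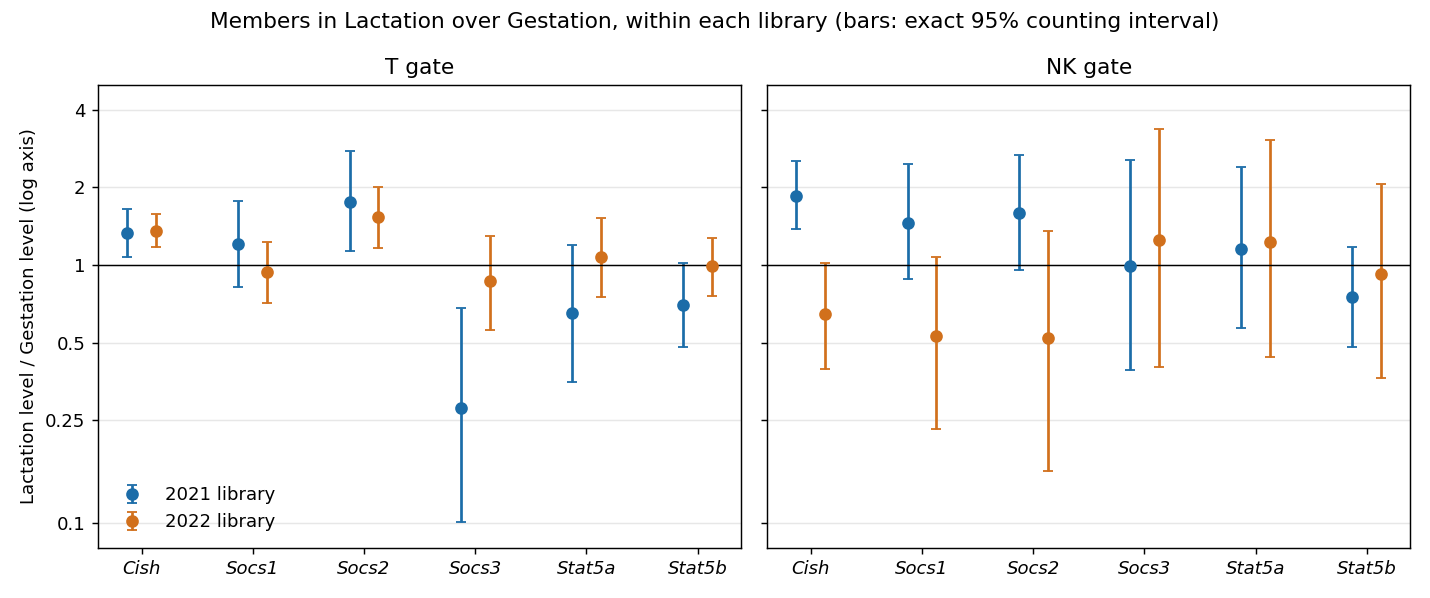
Lactation level divided by Gestation level of 6 members in the T gate (left) and the NK gate (right), on a log axis, for the earlier (blue) and later (orange) pool, with bars for the exact 95% counting interval. In T cells the Cish and Socs2 points lie above 1 in each library (1.33 to 1.75), and in NK cells they lie above 1 in the earlier pool and below 1 in the later pool.

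The Cd3e gate was split to describe the difference in its parts. T cells without a UMI of Gzmb (granzyme B, a cytotoxic protease) or Itgae (the integrin CD103 of tissue-resident cells) had a wider Socs2 gap than the whole gate in each library. Some smaller subsets had wider ones still: Cd8b1 cells without either gene had a ratio of 4.13 in the later pool (1.395 to 11.1, on 13 and 7 UMIs) and 2.03 in the earlier one (0.184 to 14.2, on 4 and 2 UMIs). Over all T cells without Gzmb or Itgae, Socs2 was 0.322 in Gestation (19 UMIs in 413 cells) and 0.859 in Lactation (23 UMIs in 147 cells) in the earlier pool. In the later pool it was 0.406 (129 UMIs in 940 cells) and 1.01 (61 UMIs in 209 cells). The ratios were 2.67 (1.39 to 5.18) and 2.48 (1.80 to 3.39). In T cells with Gzmb or Itgae the Socs2 ratio was 1.82 (0.961 to 3.68) in the earlier pool and 0.565 (0.297 to 0.995) in the later pool, so the libraries pointed in different directions there.

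Cish differed in the same place. In T cells without Gzmb or Itgae it was 0.847 and 1.27 in the earlier pool, and 1.23 and 2.11 in the later pool, ratios of 1.499 (0.940 to 2.36) and 1.72 (1.40 to 2.11). In those with Gzmb or Itgae it was already high in Gestation, 1.38 and 2.20, and was 1.55 and 2.25 in Lactation, ratios of 1.12 (0.868 to 1.46) and 1.02 (0.828 to 1.26). The share of T cells with Gzmb or Itgae was 49.1% in Gestation and 76.8% in Lactation in the earlier pool, and 33.3% and 42.7% in the later pool. That share was higher in Lactation in each library, beside the higher Cish of the whole gate, and its part in that level was not tested. Whether the subsets respond differently was not tested either.

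**Figure D3:**
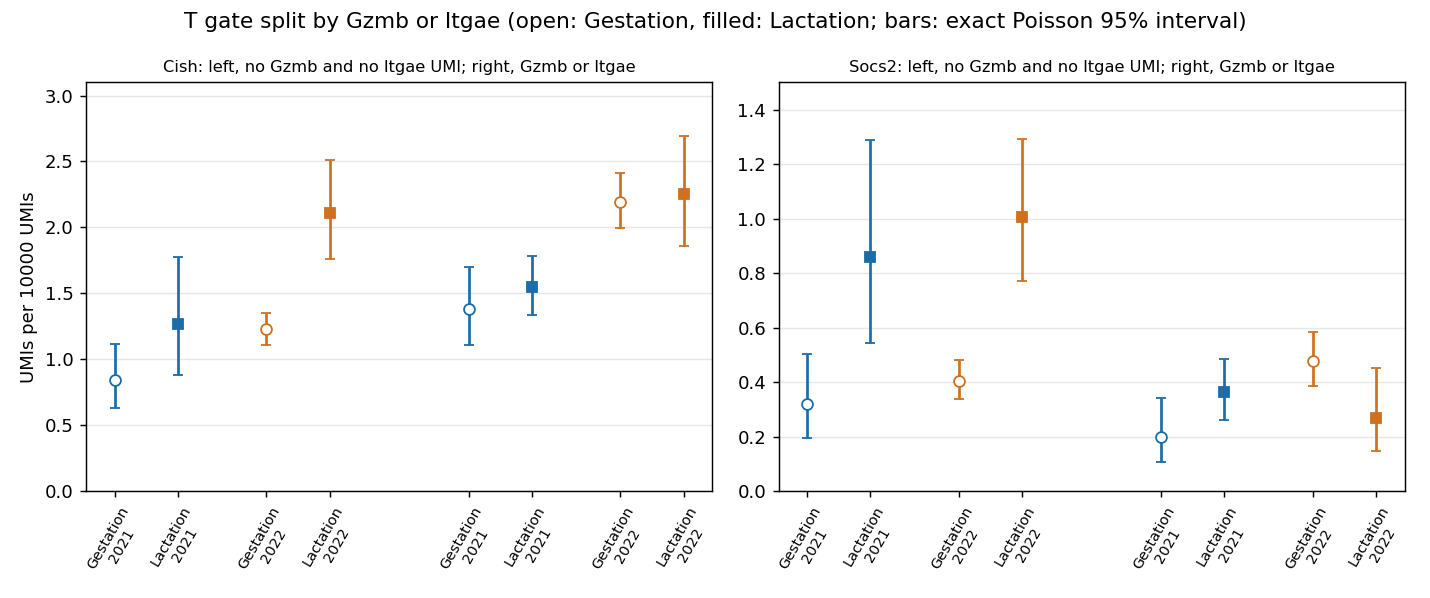
Level of Cish (left) and Socs2 (right) in T gate cells without and with a UMI of Gzmb or Itgae, for Gestation (open) and Lactation (filled) in the earlier (blue) and later (orange) pool, as UMIs per 10000 UMIs with exact Poisson 95% intervals. Socs2 in cells without either gene was 0.322 in Gestation and 0.859 in Lactation in the earlier pool and 0.406 and 1.01 in the later, while in cells with Gzmb or Itgae the libraries pointed in opposite directions.

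Among T cells with a Cd4 UMI, Socs2 was 0.815 in Gestation and 1.16 in Lactation in the later pool (85 UMIs in 290 cells and 21 in 62), a ratio of 1.42 (0.837 to 2.31). Cish was 1.90 and 2.81 there, a ratio of 1.48 (1.07 to 2.02). Among T cells with a Cd8b1 UMI, Socs2 was 0.203 and 0.300 in the later pool, and Cish was 1.29 and 1.63. Socs2 was higher in Cd4 than in Cd8b1 cells at each of these stages. In the earlier pool Cd8b1 cells (110 in Gestation and 72 in Lactation) had Cish levels of 0.835 and 1.385 (17 and 20 UMIs) and Socs2 levels of 0.245 and 0.485 (5 and 7 UMIs). Its Cd4 cells (33 and 25) had 6 and 8 Cish UMIs and 3 and 6 Socs2 UMIs. T cells with a Trdc UMI had Cish ratios of 0.870 (0.478 to 1.65) in the earlier pool and 1.49 (0.938 to 2.31) in the later pool. T cells with a UMI of none of Cd4, Cd8b1 and Trdc had Cish ratios of 1.355 (1.05 to 1.76) and 1.24 (0.993 to 1.53). Their Socs2 ratios were 1.74 (1.04 to 3.005) and 1.615 (1.10 to 2.35). They numbered 603 in Gestation and 444 in Lactation in the earlier pool, and 513 and 188 in the later pool. At these depths a missing UMI does not show that a cell lacks the gene, so they are not a defined cell type.

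Genes listed here as markers of other cell types also differed between the T cell sums. Their part in the Cish and Socs2 values was not tested. Some were common within the T gate itself, with Nkg7 in 57.65% and 63.05% of its cells and Gzma in 35.0% and 22.8%. The 6 NK markers summed to 69.6 in Gestation and 205 in Lactation T cells in the earlier pool, and to 20.0 and 46.8 in the later pool. Gzma (granzyme A) gave 6419 of 8640 and 27010 of 30370 of these UMIs in the earlier pool and 4038 of 10281 and 3246 of 5270 in the later pool, where Nkg7 led in Gestation with 4218. All 6 were tested in T cells and none was called, 5 having a positive log2 fold change (edgeR median 0.49, against 0.01 over all genes). The 6 macrophage and monocyte markers summed to 4.41 in Gestation and 2.57 in Lactation in the earlier pool, and to 4.13 and 2.81 in the later one. All 6 had a negative log2 fold change (median -0.52, with Lyz2 at -1.045) and none was called. Single listed genes that were uncalled but far from 0 were Ccr7, of the dendritic list, and Epcam, of the epithelial list. Ccr7 was at -1.69 (SE 0.32, edgeR adjusted p = 0.199) and Epcam at 1.34 (SE 0.38, edgeR adjusted p = 0.674). Ccr7 was seen in 8.40% and 19.8% of T gate cells, against 0.0951% and 0.317% for Ccl22 of the same list. Whether the Ccr7 change lay in T cells or in other cells was not tested. Ncr1 itself was at 0 because the gate leaves out cells with it. In a stricter T gate, with a further T marker and no UMI of 14 markers of other types, the Socs2 ratios were as large, at 1.94 (1.19 to 3.23) and 1.57 (1.11 to 2.20). The Cish ratios were 1.21 (0.961 to 1.52) and 1.34 (1.11 to 1.61). Milk genes, which T cells should lack, summed to 15.1 and 11.1 in the earlier pool and to 12.7 and 13.7 in the later pool. Dissociation and immediate early genes summed to 24.4 and 15.2, and to 28.6 and 34.5, so they did not keep 1 direction. In the fit 13 of the 14 had a negative log2 fold change and none was called.

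Across all named samples of the later pool, T cell Cish had its highest level in Lactation, at 2.17 (1.91 to 2.46). Balb/c followed at 1.91 (1.71 to 2.14), GF at 1.69 (1.51 to 1.88) and Gestation at 1.60 (1.49 to 1.71). Involution was at 0.857 (0.740 to 0.988) and Regression at 0.607 (0.494 to 0.738), with tag HT2 between them and Gestation at 1.05 (0.836 to 1.30). Lactation and Balb/c overlapped, as did Balb/c with GF and GF with Gestation, whereas Gestation did not overlap with HT2 and Involution (lower bound 0.740) just cleared Regression (upper bound 0.738). In the earlier pool the order was Lactation at 1.498, Nulliparous at 1.19, Gestation at 1.13 and HT2 at 0.701. Nulliparous and Gestation overlapped there, and HT2 overlapped narrowly with Gestation, by 0.951 against 0.948.

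T cell Socs2 was likewise lowest after lactation in the later pool. It was 0.282 in Regression (47 UMIs), 0.338 in Involution (75 UMIs), 0.414 in GF, 0.433 in Gestation, 0.590 in Balb/c, 0.645 in tag HT2 and 0.666 in Lactation. Each neighbour in that order overlapped with the next. In the earlier pool Socs2 was 0.258 in Gestation, 0.273 in Nulliparous, 0.359 in HT2 and 0.452 in Lactation. HT2 cells had low Cish and high Socs2 in the later pool, so the genes did not keep step across samples.

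The low Cish of Involution and Regression was seen in both Cd8b1 and Cd4 cells. T cells with a Cd8b1 UMI had 5 Cish UMIs in 132 Regression cells, a level of 0.0964 (0.0313 to 0.225), and 52 in 230 Involution cells, 0.542 (0.405 to 0.711). Gestation and Lactation cells of the same kind were at 1.29 (1.14 to 1.45) and 1.63 (1.21 to 2.16). In Cd4 cells Cish was 0.829 in Involution and 0.406 in Regression, against 1.90 in Gestation. NK Cish showed the same low end, at 0.645 in Involution, 0.337 in Regression and 0.345 in HT2, against 1.65 in GF and 1.76 in Balb/c. Each of these names has 1 sample, so no test of stages is possible for them.

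**Figure D4:**
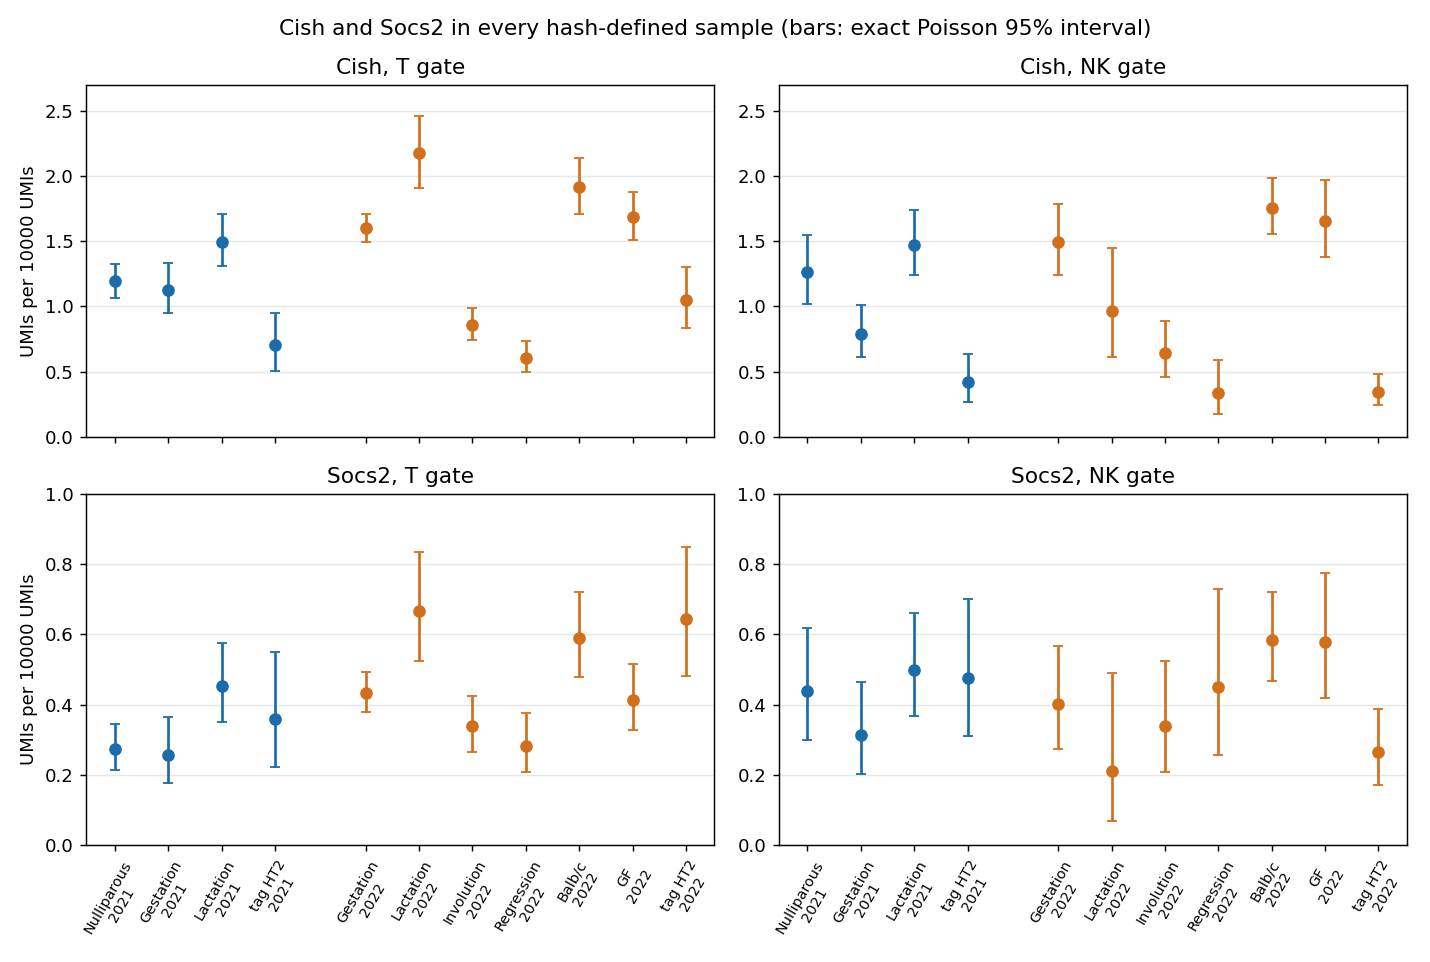
Cish (top) and Socs2 (bottom) in the T gate (left) and NK gate (right) of every hash-defined sample of the earlier (blue) and later (orange) pool, as UMIs per 10000 UMIs with exact Poisson 95% intervals. T cell Cish is highest in the Lactation sample of each library (1.498 and 2.17) and lowest in Regression (0.607) among the samples of the later pool.

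Cish was higher in T cells that also had a Socs2 UMI in some samples, over cells with at least 1000 UMIs. In Gestation of the later pool, T cells with a Socs2 UMI had a Cish level of 2.95 (2.54 to 3.41), against 1.40 (1.30 to 1.52) in T cells without one. Involution of that pool gave 2.23 and 0.709, and Nulliparous of the earlier pool gave 2.45 and 1.14. In Lactation of the later pool the levels were 2.69 (1.97 to 3.57) and 2.08 (1.80 to 2.39), and in Balb/c 1.93 and 1.91, where the intervals overlapped. Those of Lactation in the earlier pool overlapped too, at 1.87 (1.16 to 2.86) and 1.48 (1.28 to 1.70). Gestation of the earlier pool showed no such difference, at 1.09 with and 1.09 without a Socs2 UMI (7 and 114 Cish UMIs), and in GF the level was lower with one, at 1.49 against 1.71. Cells with a Socs2 UMI were deeper in Gestation of the later pool, at a median of 3827 against 3149 UMIs, and the part of depth was not tested.

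The genes most like Cish over the sums of gate and tag, among 5734 genes, were Cd96, Tle5, Skap1, Cd160 and Rinl. Cd96 had correlations of 0.986 in the earlier pool and 0.948 in the later pool, and Rinl, the fifth, 0.937 and 0.911. Those most like Socs2 were Gbp2, Traf1, Psme2, Spint2 and Wnk1, from 0.879 and 0.899 for Gbp2 to 0.834 and 0.818 for Wnk1. Likeness here is the lower of the libraries' Pearson correlations of log2(level + 0.1), given without a p-value because the sums share libraries and tags. For Socs2 it leans on the few Fscn1 sums, 1 in the earlier pool and 4 in the later pool. For Cish it includes the gap between T or NK sums and B sums.

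Other genes of the pathway, none of them members, were tested between Lactation and Gestation with edgeR and adjusted over all genes. Of the receptors and kinases upstream of STAT5, 14 of 22 were tested in T cells and none was called, with 9 positive and 5 negative log2 fold changes and a median of 0.13. Il2rb, the shared chain of the interleukin-2 and interleukin-15 receptors, had 0.37 (SE 0.22), and Jak1 had -0.21 (SE 0.22). The largest changes among the 14 were negative, opposite in sign to Cish and Socs2. They were Il7r at -1.21 (SE 0.25, edgeR adjusted p = 0.241) and Il2ra at -1.10 (SE 0.34, edgeR adjusted p = 0.758). In NK cells 13 were tested and none was called.

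Lymphocyte genes known as STAT5 targets gave no call in T cells: 21 of 22 were tested, 0 were called, 11 were positive and 10 negative, and the median was 0.03 against 0.01 over all genes. Gzmb had a log2 fold change of 1.15 (SE 0.32, edgeR adjusted p = 0.674). Its UMIs in the earlier pool were 909 in 812 Gestation cells and 3787 in 634 Lactation cells. In the later pool they were 1744 in 1409 cells and 558 in 365 cells, so Gzmb UMIs per cell were higher in Lactation in each library. Gzmb passed the threshold with no filter on low counts (log2 fold change 1.12) and at the looser tag threshold (1.33). Ccnd2, a cyclin gene, had 0.22 (SE 0.23). In NK cells 14 were tested, 4 positive and 10 negative, and none was called.

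The other STAT genes gave no call in T cells (5 of 5 tested), with a log2 fold change of 0.02 for Stat3. Of the other Socs genes and the subunits of the ubiquitin ligase that their SOCS box recruits, 9 of 9 were tested in T cells and none was called. The elongin genes Elob and Eloc had log2 fold changes of 0.18 and 0.12. Of other negative regulators of JAK-STAT signalling, 13 of 13 were tested in each of T and NK cells without a call. In NK cells 12 of these 13 were negative (median -0.19), with Ptprc, the CD45 phosphatase gene, at -0.24 (SE 0.20).

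Among interferon and STAT3 response genes, 12 of 15 were tested in T cells and none was called, with Ifngr1 at 0.24 and Irf1 at 0.08. Positive log2 fold changes numbered 10, the largest being Cxcl10 at 1.22 (SE 0.38). The 2 negative ones were Il6ra at -1.58 (SE 0.26, edgeR adjusted p = 0.127) and Il6st at -1.15 (SE 0.27, edgeR adjusted p = 0.315). In NK cells 9 were tested and 1, Cxcl10, an interferon-induced chemokine, was called higher in Lactation, with a log2 fold change of 3.60 (SE 0.64, edgeR adjusted p = 0.0447). Its UMIs were 3 in Gestation and 43 in Lactation in the earlier pool, and 1 and 5 in the later pool. The call was lost with DESeq2 size factors (adjusted p = 0.0614), with the gene CT010467.1 left out (0.0617), with cells of more than 1 gate kept (0.569), without the year block and with the DESeq2 Wald test.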

How the data were processed

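Single-cell RNA and hash tag libraries of CD45+ mammary gland cells were analysed from the UMI counts and tag counts that the authors deposited. Cell Ranger 6.1.0 and mm10 are named in the submitters' processing notes. The earlier matrix held 1347735 barcodes and 56300251 UMIs, and the later matrix 21632 barcodes and 90642638 UMIs.

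Kept cells had 500 or more UMIs, 300 or more genes and no more than 10% of UMIs from mitochondrial genes (21604 and 21177 cells). Tags were called with HTODemux at a quantile of 0.99 (Seurat 5.3.0), and Scrublet calls (8.33% and 7.25%; scanpy 1.11.5, expected rate 0.08) were left out. Gates used at least 1 UMI. Counts were summed per hash-defined sample and gate, and Lactation was compared with Gestation by edgeR 4.0.16 (quasi-likelihood test, TMM, filterByExpr, Benjamini-Hochberg adjustment over all genes, threshold 0.05) with the library year as a block. Samples of 1 year came from the same pooled library, and their deviations correlated at 0.428 in T, 0.243 in NK and 0.143 in B cells. With 2 samples per stage, and nothing saying how many animals each holds, p-values measure only the spread between these samples. On simulated counts the T fit recovered 44 of 100 genes changed 2-fold and 89 of 100 changed 4-fold among 9139 genes, and the NK fit 14 and 70 of 100 among 7782.

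The members and lists were chosen with earlier results of these data known. Named genes were the members, the called genes of each list (otherwise its 2 most counted, of which some are given) and the 5 genes most like Socs2 and Cish. Il7r, Il2ra, Il6ra, Il6st, Ccr7 and Epcam, and Cxcl10 in T cells, were named outside this rule for their large changes. Likeness used genes with at least 200 UMIs per library and sums of at least 20 cells. Alternatives covered normalization, the filter, the block, DESeq2 1.42.0, gates, tag quantile, doublets and leaving out each library.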

Additional observations from a re-analysis of the deposited data

How the results depend on the processing

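Socs2 and Cish stayed higher in Lactation in T cells under every alternative run. Against 0.66 and 0.40, requiring at least 2 Cd3e UMIs gave 0.28 and 0.21, and Cish was 0.36 with cells of more than 1 gate kept, 0.34 at an HTODemux quantile of 0.95 and 0.31 in the strict gate, which was added after seeing the data. With 1 library left out, T cell Socs2 ranged from 0.55 to 0.82 and Cish from 0.38 to 0.42, while in NK cells Socs2 ranged from -0.93 to 0.65 and Cish from -0.63 to 0.88, the sign depending on the library.

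Counts of called genes were unstable. The T count of 2 was 70 with no filter, 1 with the DESeq2 Wald test, 15 with at least 2 Cd3e UMIs, 14 with cells of more than 1 gate kept, 91 at the 0.95 quantile, 9 with Scrublet calls kept and 0 in the strict gate (edgeR, 310 at an unadjusted p under 0.05). The NK count of 7 was 2 with DESeq2 size factors, 89 with no filter, 0 with the DESeq2 Wald test (60 unadjusted), 1 with at least 2 Ncr1 UMIs, 0 with cells of more than 1 gate kept (292 unadjusted), 54 at the 0.95 quantile, 27 with Scrublet calls kept, 12 in the strict gate and 3 with CT010467.1 left out. The B count of 0 was 14 with no filter, 136 with cells of more than 1 gate kept and 43 at the 0.95 quantile. Without the replicate block by library year, the pairing of samples, edgeR called 0 genes in T (142 unadjusted), 0 in NK (331 unadjusted) and 0 in B cells. At the 0.95 quantile Hba-a1 and Hbb-bs turned to 1.68 and 1.71. The cause was not tested for any of these.

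Dendritic and epithelial sums held under 20 cells in each stage sample and were not fitted, and the B gate with at least 2 UMIs and the strict B gate were not run for the same reason. The 60 Lactation NK cells of the later pool limit what NK values can show.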
